A study of Mus musculus with 9 samples.

Results

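The 40 genes described here encode proteins that copy DNA and supply the S phase of the cell cycle. They were taken by symbol from the deposited expression table, where all 40 were found among 55357 genes. Their levels were followed through 5 poly(A) RNA libraries of SV40-MES-13, a mouse kidney cell line immortalised with SV40 and described by the submitters as mesangial. The series lowered Drosha, which cleaves primary microRNA transcripts in the nucleus, with lentiviral shRNAs in the vector pLL 3.7. Empty-vector cells (EV) gave 2 libraries, cells with the Drosha shRNA sh5 gave 1 library, and cells with the Drosha shRNA sh7 gave 2 libraries. All 3 groups shared the SV40-transformed background and a lentiviral infection. The titles call the shRNA samples KO, whereas the protocol describes shRNA knockdown, which is the word used here. Nothing in the labels says that replicates were separate cultures. The p-values of comparisons between the 3 groups reflect the spread within EV and within sh7 alone, and that spread may be technical. Where sh5 and sh7 are pooled, the spread also holds the difference between them. The small RNA samples of the series were not analysed here.

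DNA replication starts with licensing, in which the origin recognition complex, Cdc6 and Cdt1 load the MCM2-7 ring onto DNA. Cdc45 and the GINS complex then turn that ring into the active CMG helicase, and polymerases, the sliding clamp and its loader build the new strands. Many of these genes are known targets of E2F transcription factors, which the retinoblastoma protein holds in check, and SV40 large T antigen binds both that protein and p53.

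Promoter sequences are shown because E2F sites are the feature by which this gene group is best known. RefSeq windows (build GRCm38.p6) of 300 bases, from 250 before to 50 after an annotated start, matched 34 of the 40 genes by symbol, in 38 windows. Fen1 and Mcm7 had 2 windows each and Lig1 had 3, and a gene is counted below if any of its windows held the letters. Pole, Gins1, Gins2, Gins4, Mcm4 and Rfc2 had no entry. The letters TTTCGCGC or TTTGGCGC, searched on both strands, occurred in 9 of the 34 genes (26.5%), against 251 of 27025 genes in the whole table (0.929%). The 9 genes held 12 matches, of which 10 are shown with their flanks, printed 5′ to 3′ on the strand of the gene, with the matched letters, or their reverse complement, in capitals. Mcm5 had 2 matches, which overlap, and Mcm6 had 3, of which 2 overlap; 1 of each overlapping pair is shown. In Mcm7 the last C of the match is also the first C of a CCAAT.
Cdt1: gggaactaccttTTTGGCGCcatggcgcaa
Orc1: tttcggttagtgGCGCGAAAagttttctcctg
Mcm3: aacttgggaagtTTTGGCGCcaag
Mcm5: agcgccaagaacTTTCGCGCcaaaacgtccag
Mcm6, upstream: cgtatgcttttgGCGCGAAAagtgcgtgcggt
Mcm6, downstream: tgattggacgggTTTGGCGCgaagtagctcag
Mcm7: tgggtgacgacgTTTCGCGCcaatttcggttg
Pola1: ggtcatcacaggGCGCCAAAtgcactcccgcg
Rfc3: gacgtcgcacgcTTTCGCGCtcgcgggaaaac
Lig1: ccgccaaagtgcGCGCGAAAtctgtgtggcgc

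The windows lay at chr8:122568035-122568064 for Cdt1, chr4:108579415-108579446 for Orc1, chr8:75109344-75109375 for Mcm5 and chr7:13278840-13278871 for Lig1, all on the plus strand. On the minus strand they lay at chr1:20820263-20820286 for Mcm3, chr1:128359792-128359823 and chr1:128359733-128359764 for Mcm6, chr5:138171848-138171879 for Mcm7, chrX:93632274-93632305 for Pola1 and chr5:151651199-151651230 for Rfc3. The CCAAT box, on either strand, occurred in 22 of the 34 genes (64.7%) and in 41.1% of all genes in the table. The letters GGGCGG, a core of sites for Sp factors, occurred in 26 (76.5%) and in 38.2% of all genes. Both the E2F letters and CCAAT were present in 7 genes (20.6%), against 0.481% of all genes. Among lists of related genes, the E2F letters occurred in 5 of 28 other replication genes, 4 of 20 genes of E2F, Rb and G1/S control, 0 of 9 checkpoint genes and 2 of 25 genes of G2 and mitosis. A match describes letters only, and these windows are one reading of where a gene starts.

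The whole window of Mcm7 that held the match and that of Rrm1 follow, since these genes had among the largest differences upward and downward between sh7 and EV. CCAAT or its reverse complement is in capitals. The Mcm7 window was chr5:138171834-138172133 on the minus strand; its other window, chr5:138171217-138171516, held CCAAT but neither E2F string and is not printed. For Rrm1 the window was chr7:102441445-102441744 on the plus strand. It held CCAAT and, again, neither of those strings.
Mcm7: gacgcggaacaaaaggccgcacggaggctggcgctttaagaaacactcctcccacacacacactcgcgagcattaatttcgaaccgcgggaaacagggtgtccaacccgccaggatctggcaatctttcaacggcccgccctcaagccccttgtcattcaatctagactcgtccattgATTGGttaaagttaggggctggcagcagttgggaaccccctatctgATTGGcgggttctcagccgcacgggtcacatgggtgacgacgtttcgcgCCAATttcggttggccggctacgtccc
Rrm1: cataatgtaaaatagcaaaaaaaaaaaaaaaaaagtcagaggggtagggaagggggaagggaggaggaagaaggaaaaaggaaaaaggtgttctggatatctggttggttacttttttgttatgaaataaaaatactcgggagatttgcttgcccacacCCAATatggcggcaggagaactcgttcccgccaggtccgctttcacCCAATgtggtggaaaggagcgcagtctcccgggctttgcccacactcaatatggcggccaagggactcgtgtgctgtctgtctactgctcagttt

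Drosha itself was at 60.03 and 56.4 TPM (EV), 36.0 TPM (sh5) and 8.39 and 14.9 TPM (sh7), so its levels went with the labels. By limma the log2 difference from EV was -2.27 in sh7 (SE 0.266, adjusted p = 0.109) and -0.68 in sh5 (SE 0.326, adjusted p = 0.572), neither past the threshold of 0.05. TPM are transcript abundances scaled for length to a fixed sum per library, and they keep no sequencing depth. The libraries also differed in other respects. The summed TPM of 20 interferon response genes was 268 in EV replicate 1 but 3030 in EV replicate 2, against 2191 in sh5 and 5042 and 4954 in sh7. EV replicate 1 correlated at 0.968 with EV replicate 2 across tested genes, whereas EV replicate 2 correlated at 0.982 with sh5. The 13 mitochondrially encoded mRNAs summed to 3957 TPM in sh5, against 7512 to 14163 TPM in the other libraries. Of 8 mesangial markers, 7 had a mean under 1 TPM, with Ren1 listed at 0 in every library and Pdgfrb at most at 0.251 TPM, and only Fhl2 reached 30.2 to 44.2 TPM. The defining mesangial markers were thus mostly absent, and the cells are called by their line name. Of 6 tubule and epithelial markers, Cdh16 (126 to 154 TPM), Pax8 (51.7 to 89.0 TPM) and Epcam (26.9 to 64.7 TPM) were the higher ones, Cdh1 (1.78 to 6.95 TPM) and Lrp2 (1.11 to 2.68 TPM) were low, and Aqp2 was listed at 0 in every library. In bulk RNA, fewer cells in S phase and less RNA per cell cannot be told apart.

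In EV, sh5 and sh7 alike, the replication genes were abundant. Their mean over the 5 libraries ran from 18.5 TPM for Orc1, the largest subunit of the origin recognition complex, to 595 TPM for Pcna, the sliding clamp, with a median of 107 TPM. Of the 40 genes, 38 lay above the median tested gene and 13 lay in the top 10% of tested genes. The lowest value of any member in any library was 15.5 TPM, so all 40 passed the filter on low values. For 38 of 40 genes the highest library was less than 1.5 times the lowest, and the median of that ratio was 1.22. The 2 exceptions were Rfc1 at 1.77 and Pola1 at 1.58, in both of which sh5 was the lowest library.

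**Figure D1:**
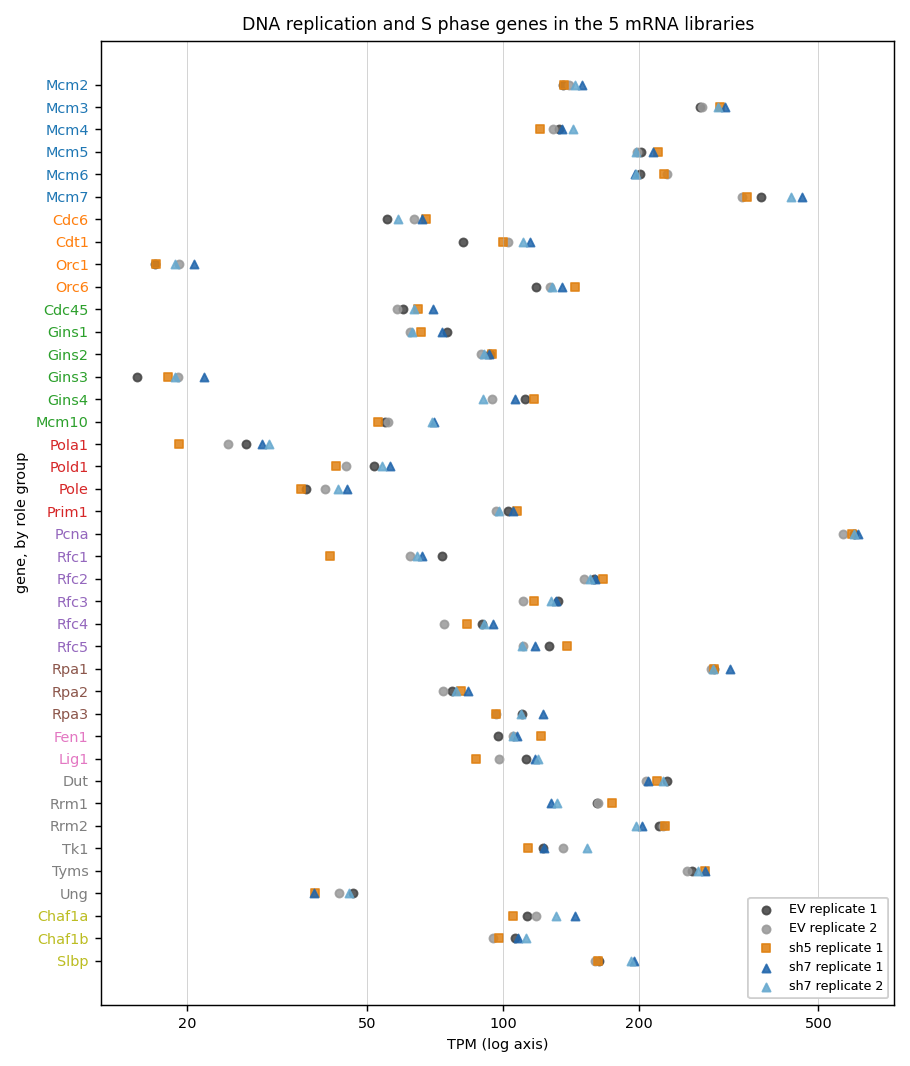
TPM (log axis) of the 40 replication and S phase genes in each of the 5 libraries, with 1 row per gene and 1 symbol per library; the colour of a gene name marks its role group. The symbols of most genes lie close together, and the sh5 squares of Rfc1 and Pola1 stand to the left of the other libraries.

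Summed over the 40 genes, the level was 5519 and 5352 TPM (EV), 5543 TPM (sh5) and 5838 and 5668 TPM (sh7). The sh7 libraries were the highest and EV replicate 2 the lowest, and the whole range was narrow, from 0.535% to 0.584% of all TPM. Between the EV replicates the median absolute difference of the members was 0.118 on the log2 scale (0.180 over all tested genes), and between the sh7 replicates it was 0.064 (0.136 over all tested genes). None of the 40 differed by more than 2-fold between replicates, and few tested genes did so, 613 of 12728 in EV and 286 of 12728 in sh7. Whether the small spread of the members goes with their abundance was not tested.

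The comparison of sh7 with EV asks what the stronger knockdown did to this machinery. No replication gene passed the threshold, an adjusted p under 0.05 by limma with Benjamini-Hochberg adjustment over 12728 genes, which 0.0157% of all tested genes passed. The smallest adjusted p among the members was 0.259. All 40 genes had a 95% interval that lay within a 2-fold change in either direction, which held for 80.3% of all tested genes. The largest difference, of Mcm10, was 1.26-fold. The median log2 difference of the members, 0.09, was the same as that of all tested genes, 0.09, and 31 of 40 were higher in sh7 (22 with median-of-ratios scaling and 25 with quantile normalization), as were 64.3% of all tested genes.

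At an unadjusted p under 0.05, 4 of the 40 were higher in sh7 (10.3% of all tested genes) and 1 was lower (4.15% of all tested genes). Both sh7 libraries lay above both EV libraries for 20 of the 40 genes, against 35.8% of all tested genes, and below both for 3 of the 40, against 14.3%. The comparisons of sh7, of sh5 and of all knockdown libraries with EV used the same EV libraries, so they are not independent of each other.

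In the MCM2-7 helicase, Mcm7 was at 373 and 338 TPM (EV), 348 TPM (sh5) and 459 and 434 TPM (sh7). Both sh7 libraries lay above the other 3, and sh5 lay within the EV range. The log2 difference of sh7 from EV was 0.33 (SE 0.0867, 95% interval 0.10 to 0.55, limma adjusted p = 0.274). Mcm3 was at 273 and 276 TPM (EV), 302 TPM (sh5) and 311 and 299 TPM (sh7), so that every knockdown library exceeded both EV libraries. Mcm6 went the other way, with 201 and 231 TPM (EV), 227 TPM (sh5) and 196 and 197 TPM (sh7). For Mcm3 the difference of sh7 from EV was 0.15 (95% interval -0.04 to 0.34), and for Mcm6 it was -0.13 (95% interval -0.38 to 0.11). Mcm2, Mcm4 and Mcm5 had differences between 0.04 and 0.09, and the sign turned under median-of-ratios scaling for Mcm4 and under that and quantile normalization for Mcm5.

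The subunits of the ring kept a nearly fixed order although they assemble in equal numbers. In all 5 libraries Mcm7 was the most abundant, Mcm3 followed, and Mcm2 and Mcm4 were the lowest, while Mcm5 and Mcm6 changed places. The ratio of Mcm7 to Mcm4 in TPM was 2.80 and 2.62 in EV, 2.87 in sh5, and 3.39 and 3.04 in sh7, highest in the sh7 libraries. Summed over the 6 subunits, the level was 1318 and 1313 TPM (EV), 1356 TPM (sh5) and 1466 and 1415 TPM (sh7). The median difference of the 6 between sh7 and EV was 0.09, beside 0.09 over all tested genes. With median-of-ratios scaling these medians were 0.00216 and 0.00854 in turn.

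**Figure D2:**
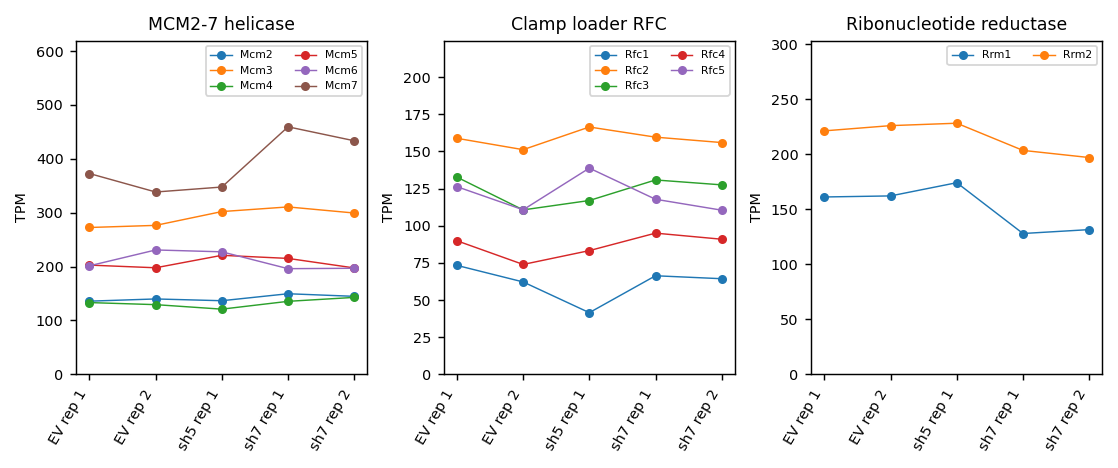
TPM of the subunits of the MCM2-7 helicase, of the clamp loader RFC and of ribonucleotide reductase in each of the 5 libraries; the lines only join the points of a gene. Mcm7 is highest in the sh7 libraries, Rfc1 is lowest in sh5, and Rrm1 is lowest in the sh7 libraries.

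Mcm7 is also 1 of 2 members, with Pold1, whose RefSeq gene span holds a microRNA hairpin on the same strand, a fact looked up after the values were seen. Of each Mcm7 hairpin, 1 mature microRNA is shown and that of the opposite arm is left out. These microRNAs are shown because Drosha cuts such hairpins out of their host transcripts. Each is printed with its seed, bases 2 to 8, in capitals, and miR-93-5p and miR-106b-5p share the seed AAAGUGC.
miR-106b-5p: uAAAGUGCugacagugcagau
miR-93-5p: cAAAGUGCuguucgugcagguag
miR-25-3p: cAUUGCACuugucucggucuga

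These lie on the minus strand at chr5:138165787-138165807, chr5:138165574-138165596 and chr5:138165332-138165353 of GRCm38.p6. In the deposited table the hairpin genes Mir25 and Mir93 were listed at 0 in all 5 libraries. Mir106b was listed at 1.69 TPM in sh7 replicate 1 and at 0 in the others. Whether the level of Mcm7 goes with the processing of these hairpins was not tested. Pold1, the catalytic subunit of polymerase delta, was at 51.8 and 45.0 TPM (EV), 42.6 TPM (sh5) and 56.1 and 53.9 TPM (sh7), and its hairpin gene Mir7053 was listed at 0 in every library.

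Among the licensing factors, Cdt1, which brings MCM2-7 to origins, was at 81.7 and 103 TPM (EV), 100 TPM (sh5) and 115 and 111 TPM (sh7). The sh7 libraries lay above both EV libraries, which themselves stood far apart. The difference of sh7 from EV was 0.29 (SE 0.131, 95% interval -0.05 to 0.63, limma adjusted p = 0.381). Orc6, a small subunit of the origin recognition complex, was at 118 and 127 TPM (EV), 144 TPM (sh5) and 135 and 128 TPM (sh7), with every knockdown library above both EV libraries. Cdc6, the ATPase that loads MCM2-7, and Orc1 overlapped between EV and sh7, with differences of 0.07 and 0.12. All 4 licensing genes had positive differences in sh7, 3 with median-of-ratios scaling and 2 with quantile normalization, and none passed the test.

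Of the proteins that convert the loaded ring into the running helicase, Mcm10, an initiation factor outside the ring, had closely matching replicates. It was at 54.8 and 55.6 TPM (EV), 53.0 TPM (sh5) and 70.4 and 69.5 TPM (sh7). The sh7 libraries lay apart from the other 3, which were alike. The difference of sh7 from EV was 0.34 (SE 0.0832, 95% interval 0.12 to 0.55, limma adjusted p = 0.267). Cdc45, the CMG subunit that joins the ring at firing, was at 60.2 and 58.4 TPM (EV), 65.0 TPM (sh5) and 69.9 and 63.6 TPM (sh7), all knockdown libraries being above both EV libraries. The GINS subunits overlapped between EV and sh7 in all 4 cases, with differences from -0.07 for Gins4 to 0.22 for Gins3. Gins3 was the least abundant of them in every library, at 15.5 to 21.8 TPM against 62.3 to 117 TPM for the other GINS genes.

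Of the polymerase and primase genes, Pola1, Pold1 and Pole were lower in sh5 and higher in sh7 than in EV. Tested genes in general leaned in the same directions. Over all of them, 43.7% lay below both EV libraries in sh5 and 35.8% above both in sh7, with median differences of -0.05 and 0.09. Pola1, the catalytic subunit of polymerase alpha, was at 26.99 and 24.6 TPM (EV), 19.2 TPM (sh5) and 29.2 and 30.3 TPM (sh7). Its order was thus sh5 below EV below sh7, with no overlap. Pold1 showed that order too, and so did Pole, the catalytic subunit of polymerase epsilon, at 36.7 and 40.3 TPM (EV), 35.6 TPM (sh5) and 45.2 and 43.1 TPM (sh7). The differences of sh7 from EV were 0.20, 0.18 and 0.19 for Pola1, Pold1 and Pole. Those of sh5 from EV were -0.41, -0.18 and -0.11, and that of Pole was -0.04 with median-of-ratios scaling and -0.02 with quantile normalization. Prim1, the primase subunit that makes the RNA primer, did not follow Pola1, Pold1 and Pole. It was at 103 and 96.6 TPM (EV), 108 TPM (sh5) and 105 and 98.1 TPM (sh7). The ratio of Pola1 to Prim1 in TPM was 0.262 and 0.254 in EV, 0.178 in sh5, and 0.278 and 0.309 in sh7.

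Pcna, the most abundant member, varied little, at 599 and 567 TPM (EV), 593 TPM (sh5) and 613 and 601 TPM (sh7). Its difference of sh7 from EV was 0.06 (95% interval -0.14 to 0.25), and the sign turned under median-of-ratios scaling. The clamp loader RFC, which opens PCNA and places it on DNA, held the largest difference of the whole gene group. Rfc1, its large subunit, was at 73.3 and 62.2 TPM (EV), 41.5 TPM (sh5) and 66.3 and 64.3 TPM (sh7). The sh5 library lay well under the other 4, and the sh7 libraries lay within the EV range. Rfc2 was the highest and Rfc1 the lowest subunit in every library, and the ratio of Rfc1 to Rfc2 was 0.249 in sh5 against 0.411 to 0.461 elsewhere. The small subunits Rfc2 to Rfc5 had differences of sh7 from EV between -0.05 and 0.19 and of sh5 from EV between -0.05 and 0.23.

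RPA, the complex that coats single-stranded DNA, kept the order Rpa1, Rpa3, Rpa2 in every library, with Rpa1 at 3.63 to 3.92 times Rpa2 in TPM. Rpa1 was at 294 and 289 TPM (EV), 293 TPM (sh5) and 319 and 292 TPM (sh7), and the groups overlapped. The differences of sh7 from EV were 0.07 for Rpa1, 0.10 for Rpa2 and 0.17 for Rpa3, and that of Rpa1 turned sign under median-of-ratios scaling. In Okazaki fragment maturation, Fen1, the flap nuclease, was at 97.7 and 105 TPM (EV), 122 TPM (sh5) and 107 and 105 TPM (sh7). Lig1, the ligase that seals the fragments, was at 112 and 98.0 TPM (EV), 87.3 TPM (sh5) and 117 and 120 TPM (sh7). In sh5 the flap nuclease was thus above and the ligase below both EV libraries, with differences of 0.26 and -0.26, neither past the threshold.

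Nucleotide supply was the only role group with a negative median difference in sh7, -0.05, though with median-of-ratios scaling the clamp and its loader had one as well. Of its 6 genes, 4 had negative differences in sh7 under each of the 3 scalings too. Rrm1, the large subunit of ribonucleotide reductase, was at 161 and 162 TPM (EV), 174 TPM (sh5) and 128 and 132 TPM (sh7). The sh7 libraries lay below all others and sh5 lay above all others. The difference of sh7 from EV was -0.32 (SE 0.0741, 95% interval -0.51 to -0.12, limma adjusted p = 0.259), the smallest p of any member in that comparison. Rrm2, the small subunit, was at 221 and 226 TPM (EV), 228 TPM (sh5) and 204 and 197 TPM (sh7), in the same order. Its difference was -0.16 (SE 0.0731, 95% interval -0.35 to 0.03, limma adjusted p = 0.393). The ratio of Rrm2 to Rrm1 was 1.37 and 1.39 in EV, 1.31 in sh5, and 1.59 and 1.498 in sh7.

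In the remaining genes of nucleotide supply and uracil removal, the sh7 libraries did not both lie below both EV libraries, as those of Rrm1 and Rrm2 did. Tyms, which makes thymidylate, was at 263 and 255 TPM (EV), 280 TPM (sh5) and 281 and 270 TPM (sh7), all knockdown libraries above both EV libraries. Tk1, the thymidine kinase, ranged from 114 TPM in sh5 to 153 TPM in sh7 replicate 2, and its 2 sh7 libraries differed by 0.31 on the log2 scale. Dut, which removes dUTP, and Ung, the glycosylase that removes uracil from DNA, overlapped between EV and sh7. Their differences of -0.01 and -0.10 had the same sign as that of Rrm1.

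Histone supply and chromatin assembly stood at the other end, with a median difference of 0.25 in sh7 (0.16 to 0.24 under the 3 other scalings). All 3 genes lay above both EV libraries in sh7, as did 35.8% of all tested genes. Chaf1b did so narrowly, at 106.4 and 94.8 TPM (EV) and 107.9 and 112.3 TPM (sh7). Slbp, the stem-loop binding protein that processes and carries histone mRNA, was at 163 and 160 TPM (EV), 162 TPM (sh5) and 196 and 193 TPM (sh7). The sh7 libraries lay apart, and sh5 lay within the EV range. Its difference was 0.27 (SE 0.0731, 95% interval 0.08 to 0.45, limma adjusted p = 0.278). Chaf1a, the large subunit of the histone chaperone CAF-1, was at 113 and 119 TPM (EV), 105 TPM (sh5) and 145 and 131 TPM (sh7), a difference of 0.25 (SE 0.0900, 95% interval 0.02 to 0.48, limma adjusted p = 0.334). Chaf1b, its partner, had a difference of 0.13 (95% interval -0.11 to 0.38).

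**Figure D3:**
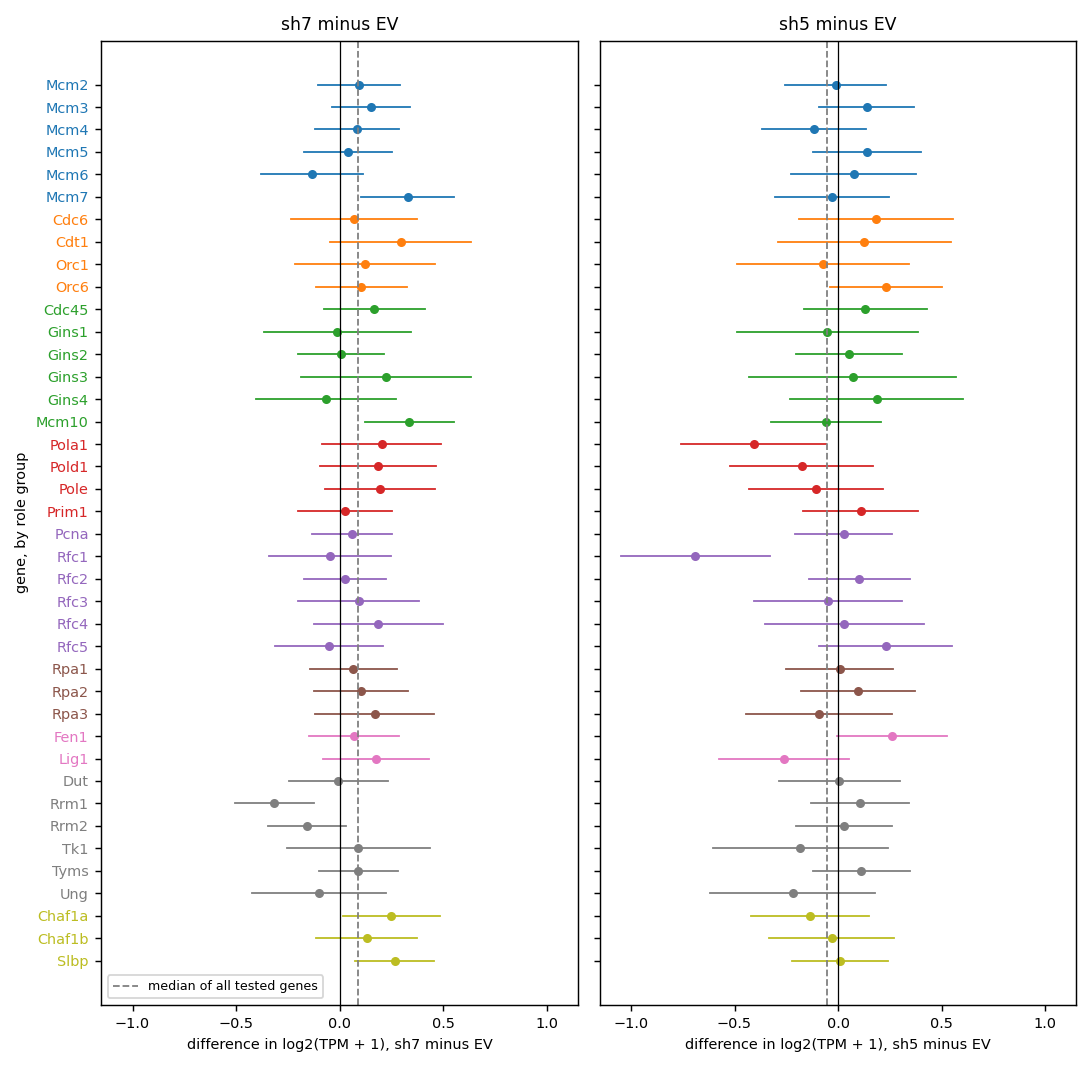
Difference in log2(TPM + 1) of sh7 from EV (left) and of sh5 from EV (right) for each of the 40 genes, as the limma estimate (point) with its 95% interval (line); the dashed line is the median of all tested genes. No interval in the left panel reaches a 2-fold change, and Rfc1 in the right panel, at -0.69, is the farthest from 0.

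The comparison of sh5 with EV rests on 1 sh5 library, which the model assumed to vary like the other groups. None of the 40 genes passed the threshold, and neither did any tested gene (0%). The smallest adjusted p among the members was 0.428, for Rfc1. Rfc1 differed by -0.69 (SE 0.138, 95% interval -1.05 to -0.33), which is 1.61-fold lower, and Pola1 by -0.41 (SE 0.135, 95% interval -0.76 to -0.06, limma adjusted p = 0.501). These were the 2 members lower at an unadjusted p under 0.05 (7.96% of all tested genes), and 0 were higher at that level (1.59% of all tested genes). The interval lay within a 2-fold change for 39 of the 40 genes, all but Rfc1, against 71.9% of all tested genes.

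The sh5 library lay above both EV libraries for 15 of the 40 genes, against 26.9% of all tested genes, and below both for 10, against 43.7%. The members' median difference was 0.02, beside -0.05 over all tested genes, and 23 of 40 were higher (29 with median-of-ratios scaling and 20 without EV replicate 2), as were 41.4% of all tested genes. With quantile normalization the members' median no longer exceeded that of all tested genes, at 0.0145 and 0.0174 in turn. The highest differences were those of Fen1 (0.26), Orc6 (0.23) and Rfc5 (0.23), each with a 95% interval that included 0. The sh5 library was also the one with the low mitochondrial mRNAs, of which 12 of 13 were lower than in EV with a median of -2.42, and whether that goes with the values of Rfc1 and Pola1 was not tested.

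The direct test of sh7 against sh5 asks whether the 2 shRNAs differed. None of the 40 genes passed the threshold, which 0.0157% of all tested genes passed, and the smallest adjusted p was 0.140. Rfc1 differed by 0.64 (SE 0.138, 95% interval 0.28 to 1.00, limma adjusted p = 0.140), Pola1 by 0.61 (SE 0.135, 95% interval 0.26 to 0.96, limma adjusted p = 0.142) and Rrm1 by -0.42 (SE 0.0907, 95% interval -0.66 to -0.19, limma adjusted p = 0.140). At an unadjusted p under 0.05, 8 of the 40 were higher in sh7 (17.1% of all tested genes) and 1 was lower (3.56% of all tested genes). The 8 were Rfc1, Pola1, Mcm10, Lig1, Chaf1a, Mcm7, Slbp and Pold1. The members' median was 0.08, below the 0.16 of all tested genes. It turned to -0.08 with median-of-ratios scaling, beside 0.01 over all tested genes. With quantile normalization it was -0.01, above the -0.03 of all tested genes. Without a filter it was 0.08, above the 0.06 of all tested genes, so the order of the medians depended on the processing.

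With the 3 knockdown libraries pooled against EV, which is how the series frames its question, none of the 40 passed the threshold, which 0.0236% of all tested genes passed, and the smallest adjusted p was 0.908. No member reached an unadjusted p under 0.05 in either direction, against 2.43% of all tested genes higher and 1.33% lower. All 3 knockdown libraries lay above both EV libraries for 6 of the 40 genes, against 12% of all tested genes, and below both for 0 of the 40, against 7.2%. The 6 were Mcm3, Cdc45, Orc6, Fen1, Tyms and Rpa2, with differences from 0.10 to 0.16. Fen1 did so by a near tie, at 105.241 TPM in EV replicate 2 and 105.275 TPM in sh7 replicate 2. Its difference of sh7 from EV was -0.02 with median-of-ratios scaling. Mcm3, at 0.15 (SE 0.0807, 95% interval -0.05 to 0.34), had the smallest p. The members' median was 0.06 and that of all tested genes 0.03. The median absolute difference was 0.0788 over the members and 0.139 over all tested genes.

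Members with and without the E2F letters in the promoter window covered overlapping ranges. In sh7 against EV the 9 genes with a match had a median difference of 0.15, 8 of them positive. The 25 genes with a window but no match had a median of 0.09, 19 of them positive. Over all tested genes, 64.3% were higher, with a median of 0.09. Under a scaling, Mcm5 and Orc1 turned sign among genes with a match. Among those without one, Cdc6, Fen1, Pcna, Prim1 and Rpa1 did so. In sh5 against EV the medians were -0.03 and 0.03. In sh7 the differences ran from -0.13 to 0.33 with a match and from -0.32 to 0.34 without one. Whether the letters go with the differences was not tested.

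Related genes outside the 40, in lists set with results of these data known, gave no gene past the threshold in sh7 or sh5 against EV. Of 34 other replication genes, 21 were higher and 13 lower in sh7, with a median of 0.09 that turned to -0.03 with quantile normalization. In sh5, 8 were higher and 26 lower, with a median of -0.18. Over all tested genes, 64.3% were higher in sh7 and 41.4% in sh5, with medians of 0.09 and -0.05. Pold2, the accessory subunit of polymerase delta, was at 163 and 165 TPM (EV), 169 TPM (sh5) and 108 and 130 TPM (sh7), a difference of -0.46 (SE 0.112, limma adjusted p = 0.262) that was opposite in sign to that of Pold1. Clspn, the mediator between stalled forks and the Chk1 kinase, was at 26.4 and 26.7 TPM (EV), 22.9 TPM (sh5) and 34.3 and 35.4 TPM (sh7), a difference of 0.38 (SE 0.0989, limma adjusted p = 0.274). Both sh7 libraries of each gene lay outside the range of the other 3.

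In the list of E2F, Rb and G1/S control, 26 of 27 genes were tested, and 13 were higher and 13 lower in sh7, with a median of 0.01 that turned to -0.07 and -0.04 with median-of-ratios scaling and quantile normalization. E2f2, an activator E2F, was at 7.78 and 10.2 TPM (EV), 8.98 TPM (sh5) and 14.8 and 14.8 TPM (sh7), a difference of 0.67 (limma adjusted p = 0.271). E2f5, a repressor E2F, was at 17.05 and 17.03 TPM (EV), 15.9 TPM (sh5) and 10.9 and 12.7 TPM (sh7), a difference of -0.49 (limma adjusted p = 0.277). Of 13 checkpoint genes, 12 were higher in sh7 (8 with quantile normalization), beside 64.3% of all tested genes. The checkpoint median of 0.19, beside 0.09 over all tested genes, was 0.11 with median-of-ratios scaling and 0.06 with quantile normalization. In sh5, 5 were higher (8 with quantile normalization), beside 41.4% of all tested genes. The checkpoint median of -0.05, the same as over all tested genes, turned to 0.02 with median-of-ratios scaling and 0.06 with quantile normalization. Wee1, the kinase that restrains entry into mitosis, was the farthest, at 12.6 and 15.7 TPM (EV), 14.4 TPM (sh5) and 22.9 and 22.1 TPM (sh7), a difference of 0.64 (limma adjusted p = 0.257).

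Genes of the next phase of the cycle were mostly lower in sh5, with none past the threshold. Of 30 genes of G2 and mitosis, 13 were higher and 17 lower in sh7, with a median of -0.01. These counts were 7 and 23 with median-of-ratios scaling and 8 and 22 with quantile normalization. Over all tested genes, 64.3% were higher in sh7, with a median of 0.09. In sh5, 27 of the 30 were lower (24 with median-of-ratios scaling), with a median of -0.32, beside 41.4% of all tested genes higher. Of the 30, 12 were lower at an unadjusted p under 0.05 (7.96% of all tested genes) and 0 were higher (1.59%). The difference between these lists was not tested.

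**Figure D4:**
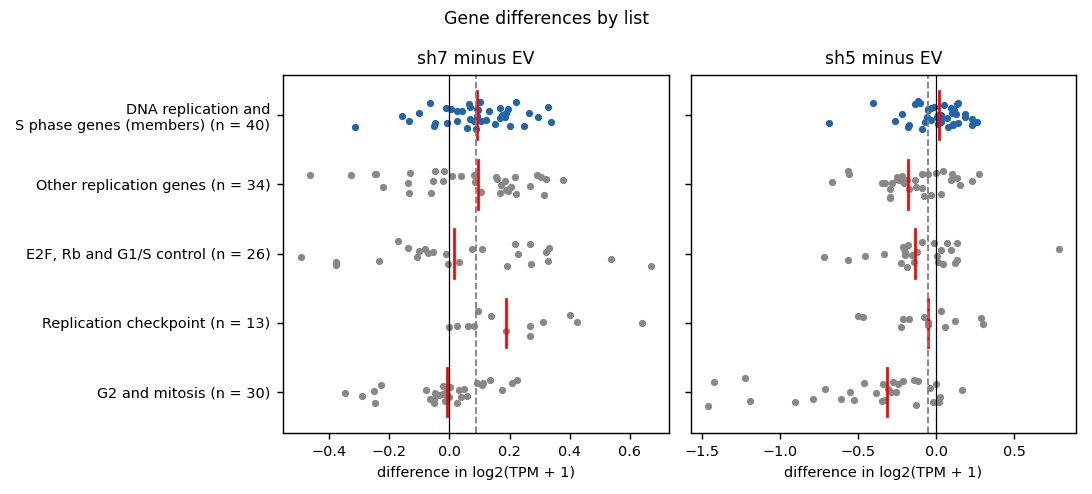
Difference in log2(TPM + 1) of sh7 from EV (left) and of sh5 from EV (right) for the tested genes of 5 lists, with 1 point per gene; red bars are list medians, the dashed line is the median of all tested genes, and the horizontal axes of the panels differ. The 40 replication genes cluster near 0 in both panels, and the points of G2 and mitosis reach -1.46 in sh5.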

How the data were processed

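Values were analysed as the TPM deposited by the authors for 55357 genes in 5 mRNA libraries. Kallisto 0.48.0 is named per the submitters' processing notes. How transcripts were summed, and with which build and annotation, is not given in the sources used here. TPM hold no depth, so no counting error was derived. Of 22339 genes with no deposited symbol, 19991 were named from a reference table.

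limma 3.58.1 in R 4.3.3 (eBayes with a mean-variance trend) was run on log2(TPM + 1) for 12728 genes whose mean reached 1 TPM. All tests were two-sided, and p-values were adjusted by Benjamini-Hochberg over all of these genes, with a threshold of 0.05. The comparisons of sh7 and sh5 came from a model of 3 groups (2 residual degrees of freedom), and the pooled knockdown from 2 arms (3 residual degrees of freedom). Fold changes on this scale understate those of low genes. The steps were tested on artificial data. Errors of means are given as limma standard errors.

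The members and the lists were chosen with earlier results of these data known. Members named were, per comparison and direction, the 4 with the smallest p, the most abundant of each role group, and the subunits of MCM2-7, RFC and RPA with Pcna. The rest are given to complete their groups. Alternatives were the pseudocount, the filter, 3 scalings, the variance model, a replicate block and leaving out each library.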

Additional observations from a re-analysis of the deposited data

How the results depend on the processing

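The count of members past the threshold was 0 in each of the 4 comparisons under every alternative run, including each library left out. Over all tested genes, the sh7 and EV comparison called 2 genes. It called 1 with a pseudocount of 0.1 or 0.5, with median-of-ratios scaling or with quantile normalization, 0 without a filter or with the replicate block, 4 under the filter of 5 TPM or without the 20 most abundant and the mitochondrial genes, 19 without the variance trend, 7 with robust eBayes, and 0 to 315 when a library was left out, 315 being without EV replicate 2. The sh5 and EV comparison called 0 genes, 180 without a filter and 0 to 67 when a library was left out, 67 being without EV replicate 2. The sh7 and sh5 comparison called 2 genes, 251 without a filter, 0 without the trend, 4 with robust eBayes, 0 with the replicate block and 0 to 9 when a library was left out, 9 being without EV replicate 1. The pooled knockdown called 3 genes, 0 without a filter or with the replicate block, 1 under the filter of 5 TPM and 0 to 3 when a library was left out. The cause of these shifts was not tested.

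The members' median in sh7 against EV was 0.00443 with median-of-ratios scaling and 0.0434 with quantile normalization, and 0.06 to 0.12 when a library was left out; these scalings moved the median of all tested genes by -0.08 and -0.11, and 22 and 25 of the 40 members were then higher. In sh5 against EV it was 0.0912 with median-of-ratios scaling and 0.00224 to 0.04 when a library was left out. With the replicate block it turned to -0.00561, with 18 of the 40 members higher. In sh7 against sh5 it was -0.0784 with median-of-ratios scaling and -0.0127 with quantile normalization, which moved the median of all tested genes by -0.15 and -0.19 in turn, and 0.0441 to 0.119 when a library was left out. In the pooled knockdown it was 0.03 to 0.09 when a library was left out. Of the named members' differences, 20 of 450 changed sign in sh7 against EV, 19 of 420 in sh5 against EV, 20 of 420 in sh7 against sh5 and 23 of 450 in the pooled knockdown, and 0 calls were gained or lost. The filter and the variance model cannot alter an estimate, so many of these checks could not change a sign. The shares are therefore no measure of how stable the signs were. The labels do not say whether replicates of the same number were prepared together. The deviations of same-numbered EV and sh7 libraries correlated at -0.016 across tested genes, a value from 2 libraries per group that cannot settle this. Depth is unknown, and 2 libraries per group, or 1, limit what could be called.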

Other observations

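Replication-dependent histone genes, whose mRNAs Slbp binds, were examined after the values of Slbp were seen. Their mRNAs mostly lack a poly(A) tail, and the near-identical copies share reads, so their values are uncertain. Of 67 such genes found, 22 had a mean of at least 1 TPM. Summed over the 67, the level was 81.9 and 99.8 TPM (EV), 137 TPM (sh5) and 130 and 122 TPM (sh7), all knockdown libraries being above both EV libraries. Of the 22 tested, 18 were higher in sh7 than in EV (64.3% of all tested genes), with a median of 0.41. With quantile normalization these were 15 and 0.20. In sh5, 19 were higher (41.4% of all tested genes), with a median of 0.49. None passed the limma threshold in either comparison. The filter used the mean over all 5 libraries, most of them knockdown. It thus more readily kept low genes that were high in knockdown, and the counts may lean that way. At an unadjusted p under 0.05, 6 were higher in sh7 (10.3% of all tested genes) and 1 was lower (4.15%). In sh5, 6 were higher (1.59% of all tested genes) and 0 were lower (7.96%). The comparisons share their EV libraries. Slbp itself was higher in sh7 (196 and 193 TPM) than in EV (163 and 160 TPM) but not in sh5 (162 TPM).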
